A study of Homo sapiens with 12 samples.

Results

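The 7 APOBEC3 cytidine deaminase genes (APOBEC3A, B, C, D, F, G and H) and UNG, which encodes uracil-DNA glycosylase, were followed in PC9 cells during erlotinib treatment and after loss of TDP1. The genes were taken from the deposited table by the Ensembl identifiers of their symbols, and all 8 were present among 62754 genes. PC9 is a human lung adenocarcinoma line with an activated EGFR, and erlotinib inhibits that kinase. RNA sequencing of polyadenylated RNA gave 12 libraries in 4 groups of 3 replicate cultures. All cells derived from a subclonal PC9 line. Untreated WT cells carried wild-type TDP1 and received no drug. DTC (drug-tolerant cells) carried wild-type TDP1 and had spent 7 days in erlotinib at 1 µM. DTEC (drug-tolerant expanded cells) carried wild-type TDP1 and had spent 28 days in erlotinib at 1 µM. The untreated libraries were labelled with no day, so drug and time in culture cannot be told apart. KO cells were 1 TDP1 knockout line, KO2, without drug, so the knockout and the line cannot be told apart. TDP1 removes trapped topoisomerase 1 from DNA ends. Per the series' design text, the replicate cultures of each condition came from a common flask and were then kept separately, so p-values measure only the spread between such cultures. Every library was labelled batch 1, and the library totals ran from 25572691 to 38373679 estimated counts.

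APOBEC3 enzymes convert cytosine to uracil in single-stranded DNA and are best known for restricting retroviruses and retrotransposons. APOBEC3A and APOBEC3B are the members most often linked to clustered and signature C-to-T and C-to-G mutations in tumours, lung adenocarcinoma among them. UNG cuts uracil out of DNA and leaves an abasic site, which base excision repair then refills. UNG is transcribed from separate starts that give a nuclear and a mitochondrial enzyme.

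Promoter sequences are shown for the members that matched the promoter table, so that the motifs of regulators tied to inflammation and to the cell cycle can be read from them. Of the 8 genes, 2 (UNG and APOBEC3H) matched the RefSeq promoter table on GRCh38.p14, which holds 250 bases before and 50 bases after each start. APOBEC3A, APOBEC3B, APOBEC3C, APOBEC3D, APOBEC3F and APOBEC3G did not match. Capitals mark motif matches, and all 3 sequences are on the plus strand. The upstream UNG promoter lies at chr12:109097347-109097646, the downstream one at chr12:109097922-109098221, and that of APOBEC3H at chr22:39096994-39097293.
UNG, upstream start: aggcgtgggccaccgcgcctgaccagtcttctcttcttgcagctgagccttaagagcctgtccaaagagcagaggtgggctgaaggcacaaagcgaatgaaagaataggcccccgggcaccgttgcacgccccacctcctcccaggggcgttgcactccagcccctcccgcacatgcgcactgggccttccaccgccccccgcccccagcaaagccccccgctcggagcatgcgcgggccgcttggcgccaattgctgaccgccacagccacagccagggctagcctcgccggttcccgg
UNG, downstream start: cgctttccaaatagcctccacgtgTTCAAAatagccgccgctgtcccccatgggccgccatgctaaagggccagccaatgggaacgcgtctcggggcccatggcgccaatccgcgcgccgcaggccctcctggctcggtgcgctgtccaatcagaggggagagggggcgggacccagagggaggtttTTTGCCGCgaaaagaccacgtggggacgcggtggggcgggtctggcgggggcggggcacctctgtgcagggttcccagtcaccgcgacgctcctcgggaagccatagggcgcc
APOBEC3H: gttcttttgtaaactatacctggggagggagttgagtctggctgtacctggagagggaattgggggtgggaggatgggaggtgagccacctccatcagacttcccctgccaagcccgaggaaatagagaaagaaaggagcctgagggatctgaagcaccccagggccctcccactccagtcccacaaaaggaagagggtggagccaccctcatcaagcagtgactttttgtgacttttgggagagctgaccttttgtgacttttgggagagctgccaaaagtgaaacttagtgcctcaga
The downstream UNG promoter held the E2F motif TTTNNCGC as TTTGCCGC at -63 to -56 from the start, and the CHR motif TTTGAA of cell cycle genes, read on the other strand as TTCAAA, at -226 to -221. Among 35116 promoters of the same length, 6.89% held this E2F motif and 15.2% held this CHR motif. On both strands, the NF-kB motif (in 11.3% of promoters), the ISRE-like interferon response motif (3.57%), the GAS motif TTCNNNGAA (7.66%), the AP-1 motif TGANTCA (7.71%) and the FOXO motif GTAAACA (3.42%) had 0 matches in the 3 windows. A match describes the letters, and the lack of one says only that these letters were not in the window. The UNG windows were rich in G and C, at 68% upstream and 68.3% downstream, with 22 and 29 CpG dinucleotides, against 53.3% and 1 CpG for APOBEC3H.

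The APOBEC3 genes are near-identical in parts, and reads that fit several of them were shared out by estimation. Of the 96 deposited values of the 8 genes, 62 were fractional (64.6%), meaning more than 0.001 from a whole number. All 62 were among the 84 APOBEC3 values. All 12 values were fractional for APOBEC3A, APOBEC3B and APOBEC3G, 11 for APOBEC3D and APOBEC3F, 4 for APOBEC3C, and 0 for APOBEC3H and UNG. In the whole table, 15935 genes averaged 10 counts or more, and 28.6% of their values were fractional. The read length was 101 bases, so the share of a gene's 101-base windows that also occurred in another gene's GENCODE 29 transcripts was computed. That share was 84.3% for APOBEC3D, of which most was with an APOBEC3C-APOBEC3D readthrough gene (83.2%). It was 36.2% for APOBEC3B, 13.4% for APOBEC3F, 12.6% for APOBEC3A and 11.2% for APOBEC3G, and 0 for APOBEC3C, APOBEC3H and UNG. APOBEC3D values are therefore uncertain, and so is the split between APOBEC3A and APOBEC3B, where 12.6% of APOBEC3A windows occurred in APOBEC3B and 27.1% of APOBEC3B windows occurred in APOBEC3A.

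The family changed its makeup during treatment. At 7 days APOBEC3A and APOBEC3B rose while APOBEC3C and UNG fell. At 28 days APOBEC3C, APOBEC3F, APOBEC3G and APOBEC3H rose above untreated WT, APOBEC3B fell below it, and the difference of UNG from untreated WT did not pass the test. Levels are given as CPM, the estimated counts scaled to a common library total after correction of the library totals by the trimmed mean of M-values (TMM). Tests are edgeR quasi-likelihood tests fitted over all 12 libraries and 17115 genes, a gene was called at a Benjamini-Hochberg adjusted p under 0.05, and SE denotes the standard error of a log2 fold change. In DTC against untreated WT, 4 of the 8 genes were called, 2 higher and 2 lower, where 67.3% of all tested genes were called (34% higher and 33.3% lower). APOBEC3A, 1 of the 2 higher genes, had passed the filter on low counts only through DTC. In DTEC against untreated WT, 5 were called, 4 higher and 1 lower, where 52.3% of all tested genes were called (26% higher and 26.3% lower). In DTEC against DTC, 7 were called, 5 higher and 2 lower, where the background was 55.4% (28.8% higher and 26.6% lower). In KO against untreated WT, 0 were called with edgeR and 0 had an unadjusted p under 0.05, where the background was 4.31% (2.76% higher and 1.55% lower). The libraries of the compared groups did not overlap for 5 of the 8 genes in DTC and 6 in DTEC against untreated WT and for 8 in DTEC against DTC, beside 68.9%, 62.4% and 56.7% of all tested genes. The counts against untreated WT lie near these background shares. The median log2 fold change of the 7 APOBEC3 genes was 0.14 in DTC, 1.42 in DTEC and 0.17 in KO against untreated WT, beside 0.06, 0.02 and -0.01 over all tested genes. In DTC and in DTEC that median is the value of APOBEC3D, which is uncertain and was not called. DTC, DTEC and KO were compared with the same untreated WT libraries, so those 3 comparisons are not independent.

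**Figure D1:**
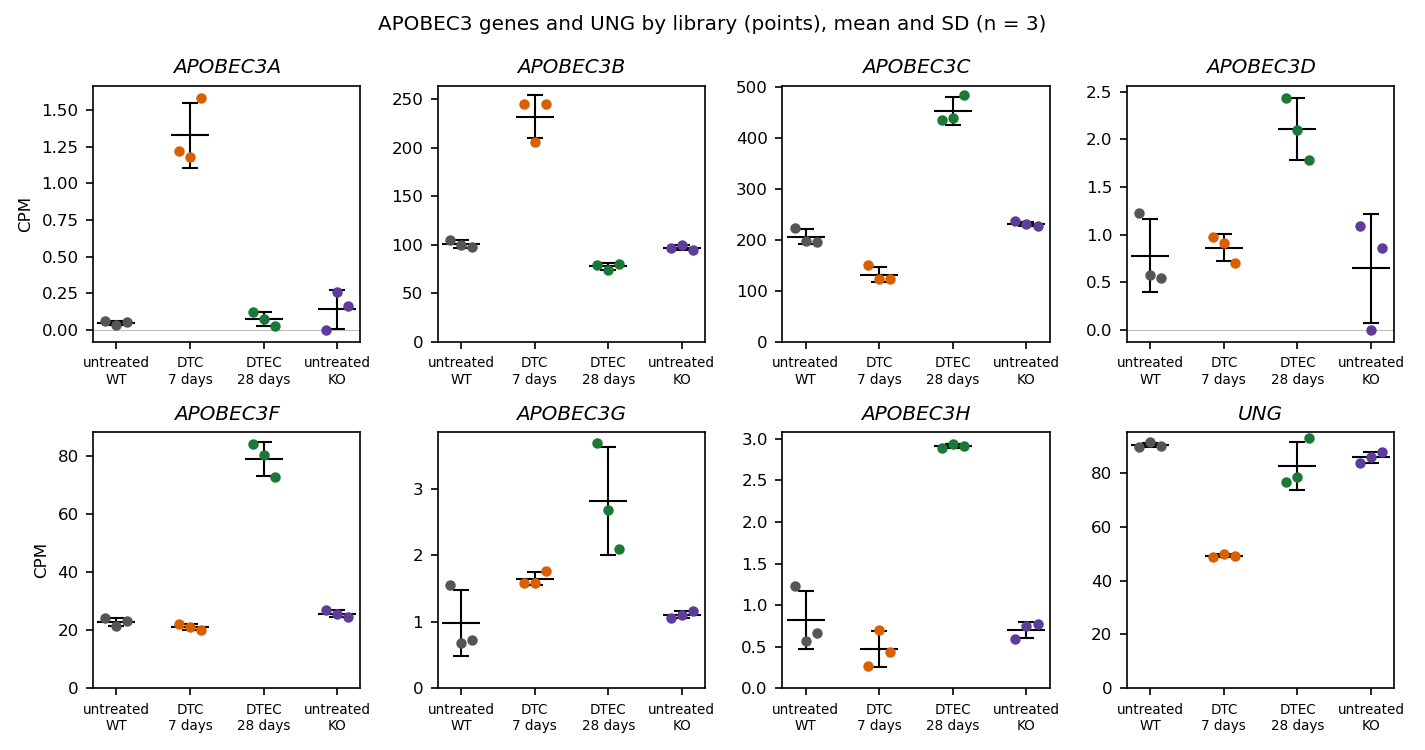
Level of each of the 8 genes in CPM, 1 point per library in each of the 4 groups, with lines at the mean and bars of 1 SD (n = 3), each panel on its own linear axis. APOBEC3B and APOBEC3A stand highest in DTC, APOBEC3C, APOBEC3F and APOBEC3H highest in DTEC, and UNG lowest in DTC.

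APOBEC3B (ENSG00000179750, chr22:38982347-38992804 in GENCODE 29 on GRCh38, plus strand) encodes a nuclear deaminase. It measured 105, 99.5 and 97.8 CPM in untreated WT, 245, 206 and 246 in DTC, 79.4, 73.8 and 80.03 in DTEC and 96.5, 99.5 and 94.7 in KO. Every DTC library stood above every other library, and every DTEC library stood below the others. The mean rose from 101 ± 3.83 (SD, n = 3) to 232 ± 22.5 CPM at 7 days, with a log2 fold change of 1.20 (SE 0.0934, adjusted p = 5.1e-08). At 28 days it was 77.7 ± 3.44 CPM, a log2 fold change of -0.37 from untreated WT (SE 0.0928, adjusted p = 0.00365). That small fall depended on the scaling, since with total counts alone it was -0.21 with an adjusted p of 0.0716. From 7 to 28 days APOBEC3B fell by 1.58 on the log2 scale (SE 0.0945, adjusted p = 1.11e-08).

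APOBEC3A (ENSG00000128383, chr22:38952741-38992778, plus strand) encodes a deaminase that is potent on single-stranded DNA. Its GENCODE 29 span overlaps APOBEC3B and APOBEC3B-AS1. It was nearly silent outside DTC, at 0.0597, 0.0337 and 0.0577 CPM in untreated WT, 1.22, 1.18 and 1.58 in DTC, 0.122, 0.0764 and 0.0275 in DTEC and 0, 0.259 and 0.166 in KO. Every DTC library stood above all libraries of the other groups, which overlapped with each other. These levels rest on few counts, 130 in the 3 DTC libraries together against 5 in untreated WT, 7 in DTEC and 14 in KO. The scaled ratio of DTC to untreated WT was 26.0, with an exact 95% interval of 10.9 to 81.5 that covers counting error only. APOBEC3A passed the filter on low counts only through DTC, the group where it was high, so its calls behind that filter support nothing by themselves. Those fitted log2 fold changes were 4.60 (SE 0.707, adjusted p = 4.81e-05) from untreated WT to DTC and -4.10 (SE 0.675, adjusted p = 0.000151) from DTC to DTEC. In the edgeR fit of all genes without a count filter they were 4.59 (adjusted p = 2.73e-10) and -4.08 (adjusted p = 8.3e-09). Its counts were 0.490% to 0.640% of those of APOBEC3B in DTC and 0.0227% to 0.0583% in untreated WT, a higher share in each DTC library than in any untreated WT library, while KO ranged from 0.00145% to 0.271%. Whether reads of APOBEC3B were assigned to APOBEC3A was not tested.

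APOBEC3C (ENSG00000244509, chr22:39014083-39020352, plus strand), a family member with a single deaminase domain, followed the opposite course. It measured 222, 198 and 196 CPM in untreated WT, 149.6, 122 and 123 in DTC, 434, 439 and 483 in DTEC and 236, 230.1 and 226 in KO. DTC libraries were the lowest and DTEC libraries the highest, with no overlap between them and any other group. The mean fell from 206 ± 14.4 CPM to 132 ± 15.4 at 7 days (log2 fold change -0.64, SE 0.102, adjusted p = 6.21e-05). The size of that fall depended on the processing. Over 15 alternative fits it ranged from -0.71 to -0.29, and it was called in each. At 28 days the mean was 452 ± 26.8 CPM, higher than untreated WT by 1.14 (SE 0.102, adjusted p = 6.88e-07) and higher than DTC by 1.78 (SE 0.104, adjusted p = 8.79e-09) on the log2 scale.

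APOBEC3F (ENSG00000128394, chr22:39040604-39053910, plus strand), a cytoplasmic antiviral deaminase, rose in DTEC. It measured 24.04, 21.5 and 23.2 CPM in untreated WT, 22.1, 21.02 and 20.06 in DTC, 84.1, 80.2 and 72.7 in DTEC and 26.9, 25.6 and 24.6 in KO. The DTEC libraries stood far above all others, while DTC and untreated WT overlapped. The mean was 79.0 ± 5.83 CPM in DTEC and 22.9 ± 1.32 in untreated WT, a log2 fold change of 1.79 (SE 0.0963, adjusted p = 7.58e-09), and the log2 fold change from DTC was 1.91 (SE 0.0968, adjusted p = 2.33e-09). The difference of DTC from untreated WT was -0.12 on the log2 scale (SE 0.0955, adjusted p = 0.278), and its sign turned to 0.23 with total counts alone (adjusted p = 0.0386) and to 0.17 with upper quartile scaling.

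APOBEC3H, APOBEC3G and APOBEC3D, all antiviral family members, were expressed at or below a few CPM. APOBEC3H (ENSG00000100298, chr22:39097224-39104067, plus strand), whose promoter is printed above, had whole counts only. It measured 1.22, 0.573 and 0.663 CPM in untreated WT, 0.270, 0.706 and 0.440 in DTC, 2.89, 2.94 and 2.91 in DTEC and 0.597, 0.744 and 0.774 in KO. The DTEC libraries were close together and above all others, and DTC overlapped untreated WT. APOBEC3H rose by 1.82 on the log2 scale from untreated WT to DTEC (SE 0.336, adjusted p = 0.00042) and by 2.60 from DTC to DTEC (SE 0.355, adjusted p = 2.85e-05). The difference of DTC from untreated WT, -0.78, did not pass the test (SE 0.369, adjusted p = 0.0734). It passed without untreated WT replicate 2 (adjusted p = 0.0418) or without DTC replicate 2 (adjusted p = 0.0229).

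APOBEC3G (ENSG00000239713, chr22:39077005-39087743, plus strand) measured 1.55, 0.675 and 0.721 CPM in untreated WT, 1.59, 1.59 and 1.76 in DTC, 3.68, 2.67 and 2.09 in DTEC and 1.05, 1.10 and 1.16 in KO. Untreated WT replicate 1 stood close to the DTC libraries and apart from the other two untreated libraries. APOBEC3G rose by 1.51 from untreated WT to DTEC (SE 0.314, adjusted p = 0.00106). The DTC difference of 0.74 did not pass the test (SE 0.318, adjusted p = 0.0531), and it was 1.26 with an adjusted p of 0.00208 without untreated WT replicate 1. It also passed with limma voom (adjusted p = 0.0396), with the replicate block (0.80, adjusted p = 0.0308) and with every scaling other than TMM (adjusted p from 0.00681 to 0.0405). The rise from DTC to DTEC, 0.77 (SE 0.302, adjusted p = 0.0423), was lost without any 1 of the DTC libraries or of DTEC replicates 1 and 2, with adjusted p from 0.0749 to 0.202, and was lost with DESeq2 (adjusted p = 0.0589), total counts alone (0.111) and upper quartile scaling (0.108).

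APOBEC3D (ENSG00000243811, chr22:39021113-39033276, plus strand) measured 1.22, 0.573 and 0.548 CPM in untreated WT, 0.980, 0.912 and 0.704 in DTC, 2.44, 2.10 and 1.79 in DTEC and 1.09, 0 and 0.857 in KO. The DTEC libraries stood above those of all other groups, but no comparison was called in the edgeR fit of all groups. The DTEC difference from untreated WT was 1.42 (SE 0.651, adjusted p = 0.0828), and that from DTC was 1.28 (SE 0.646, adjusted p = 0.109). Both passed when only the compared groups were fitted (adjusted p = 0.00467 and 0.00474) and without a count filter (adjusted p = 0.000663 and 0.00202). In KO replicate 2 APOBEC3D was listed at 0 and the APOBEC3C-APOBEC3D readthrough gene, which shares most of its sequence, at 17.05 counts.

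**Figure D2:**
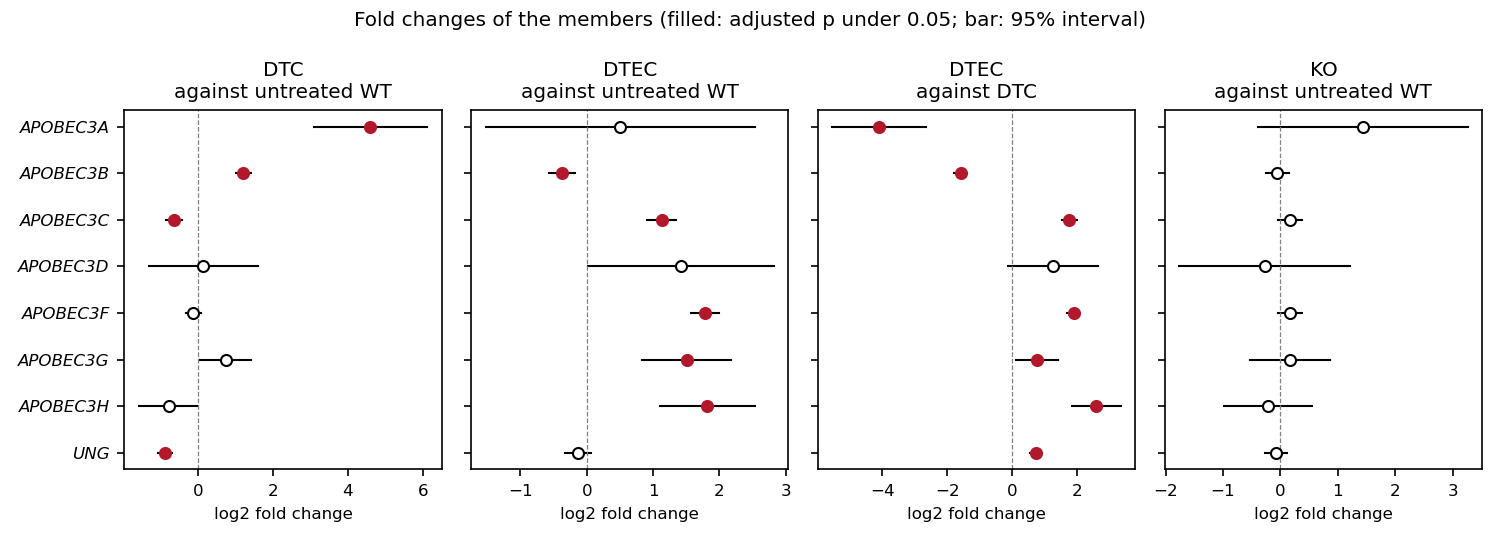
Log2 fold change of each gene with its 95% confidence interval from the edgeR fit, in the 4 comparisons, filled where the adjusted p was under 0.05. APOBEC3A and APOBEC3B lie above 0 and APOBEC3C and UNG below 0 at 7 days, and APOBEC3C, APOBEC3F, APOBEC3G and APOBEC3H lie above 0 at 28 days, while every KO interval includes 0.

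UNG (ENSG00000076248, chr12:109097574-109110992, plus strand) was lowered at 7 days and was near its untreated level at 28 days. It measured 89.7, 91.3 and 90.2 CPM in untreated WT, 48.7, 49.9 and 49.1 in DTC, 76.7, 78.3 and 92.8 in DTEC and 83.7, 85.8 and 87.9 in KO. The DTC libraries stood below all others, and DTEC replicate 3 was above every untreated WT library. UNG fell from 90.4 ± 0.827 to 49.2 ± 0.616 CPM, or 54.5% of the untreated level (a log2 difference of -0.88 with SE 0.0916 and adjusted p = 1.05e-06), and rose by 0.75 from DTC to DTEC (SE 0.0915, adjusted p = 1.07e-05). Over 15 alternative fits the 7-day fall ranged from -0.89 to -0.52, and it was called in each. The difference of DTEC from untreated WT was -0.13 (95% interval -0.32 to 0.06, adjusted p = 0.247). Without DTEC replicate 3 that difference was -0.23 with an adjusted p of 0.0425, and with total counts alone it was 0.04.

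Because the genes differ in length, levels between genes were compared as CPM per kilobase of the principal transcript. In untreated WT the order was APOBEC3C (73.0), APOBEC3B (65.7), UNG (43.7) and APOBEC3F (8.50), followed by APOBEC3H, APOBEC3G and APOBEC3D at 0.830, 0.536 and 0.309, whose libraries overlapped between neighbours, and APOBEC3A at 0.0341. In DTC the order of the leading genes turned to APOBEC3B (151), APOBEC3C (46.8), UNG (23.8) and APOBEC3F (7.82), and APOBEC3A at 0.897 was level with APOBEC3G. In DTEC it was APOBEC3C (160.4), APOBEC3B (50.7), UNG (39.9) and APOBEC3F (29.3), then APOBEC3H at 2.95. In KO the first 4 kept the order of untreated WT, at 81.9, 63.2, 41.4 and 9.55.

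The summed level of the 7 APOBEC3 genes per kilobase ranged over the untreated WT libraries from 143 to 159, over DTC from 189 to 223, over DTEC from 239 to 255 and over KO from 153 to 158. The groups of treated cells lay above untreated WT in every library, and KO lay within its range. Of the per-kilobase sum, APOBEC3B made up between 43.1% and 44.9% in untreated WT, between 71.4% and 74.8% in DTC, between 20.1% and 21.3% in DTEC and between 39.8% and 41.2% in KO. APOBEC3C made up 48.6% to 49.6%, 20.5% to 23.8%, 63.4% to 67.1% and 51.8% to 52.9% in the same order. The per-kilobase ratio of APOBEC3C to APOBEC3B, which does not depend on the scaling between libraries, ranged from 1.09 to 1.15 over untreated WT, from 0.273 to 0.332 over DTC, from 2.98 to 3.28 over DTEC and from 1.26 to 1.33 over KO. Its ranges did not overlap between any of the 4 groups.

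**Figure D3:**
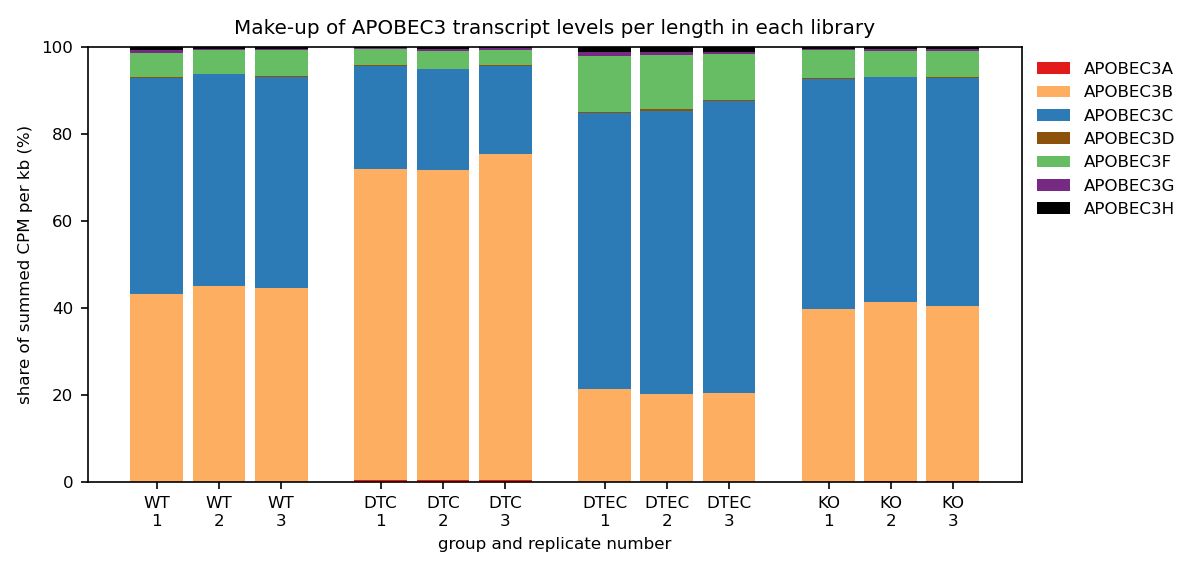
Share of each APOBEC3 gene in the per-kilobase sum of the 7 genes, in percent, 1 bar per library. APOBEC3B holds 71.4% to 74.8% in DTC and APOBEC3C holds 63.4% to 67.1% in DTEC.

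The knockout was first checked by TDP1 itself, which was at 26.3 ± 1.60 CPM in untreated WT and 10.8 ± 0.647 in KO, or 41.0% of the untreated WT level (a log2 difference of -1.29 with an adjusted p of 1.3e-05). All KO libraries stood below all untreated WT libraries, and reads were still assigned to the gene. A lower TDP1 level was not particular to KO. In DTC, which carried wild-type TDP1, it was 14.0 ± 1.55 CPM, or 53.0% of untreated WT. That log2 difference was -0.92 (adjusted p = 3.56e-06 in edgeR). In KO against untreated WT none of the 8 genes was called with edgeR, DESeq2 or limma voom. The log2 fold change was -0.06 for APOBEC3B (95% interval -0.25 to 0.14), 0.17 for APOBEC3C (-0.05 to 0.38), 0.17 for APOBEC3F (-0.04 to 0.37) and -0.08 for UNG (-0.27 to 0.12), so for these genes a change as large as those in DTC for APOBEC3B and UNG or in DTEC for APOBEC3C and APOBEC3F lay outside the interval. For the low genes the intervals were wide, such as -0.39 to 3.26 for APOBEC3A, -1.76 to 1.22 for APOBEC3D and -0.98 to 0.55 for APOBEC3H. APOBEC3A had a ratio of KO to untreated WT of 2.87 with an exact interval of 0.975 to 10.2. When only KO and untreated WT were fitted, 1 gene was called, APOBEC3C at an adjusted p of 0.0349. The KO libraries of APOBEC3C and APOBEC3F were all above those of untreated WT and those of UNG all below, and libraries did not overlap for 35.7% of all tested genes.

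The APOBEC3 genes lie side by side on chromosome 22, and no test was made of their changes against their order. The 13 nearest listed neighbours outside the cluster were mixed. At 7 days 3 rose and 6 fell, with a median log2 fold change of -0.08, and with total counts alone 6 rose and 5 fell. CBX6, a Polycomb subunit just before the cluster, fell by 0.63, and CBX7, a related subunit just after it, was at 0.27 (adjusted p = 0.0516). PDGFB, a growth factor gene, rose by 2.66, SYNGR1, a vesicle protein gene, rose by 1.04, and MGAT3, a glycosyltransferase gene at 0 in untreated WT, was at least 36.9-fold higher against a floor of 3 counts per library. RPL3, a ribosomal protein gene, fell by 1.01, TOMM22 of the mitochondrial import complex by 1.06, TAB1 by 0.98, SUN2 of the nuclear envelope by 0.79 and GTPBP1 by 0.68. At 28 days 7 of the 13 rose and 3 fell against untreated WT (median 0.36), with CBX7 and DNAL4 higher by 1.19 and 1.04. In KO 2 rose, SYNGR1 by 1.25 and NPTXR by 0.56. Of all tested genes, 67.3% were called in DTC, 52.3% in DTEC and 4.31% in KO against untreated WT, and 55.4% in DTEC against DTC. The counts of this list and of the lists below stand beside these shares.

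**Figure D4:**
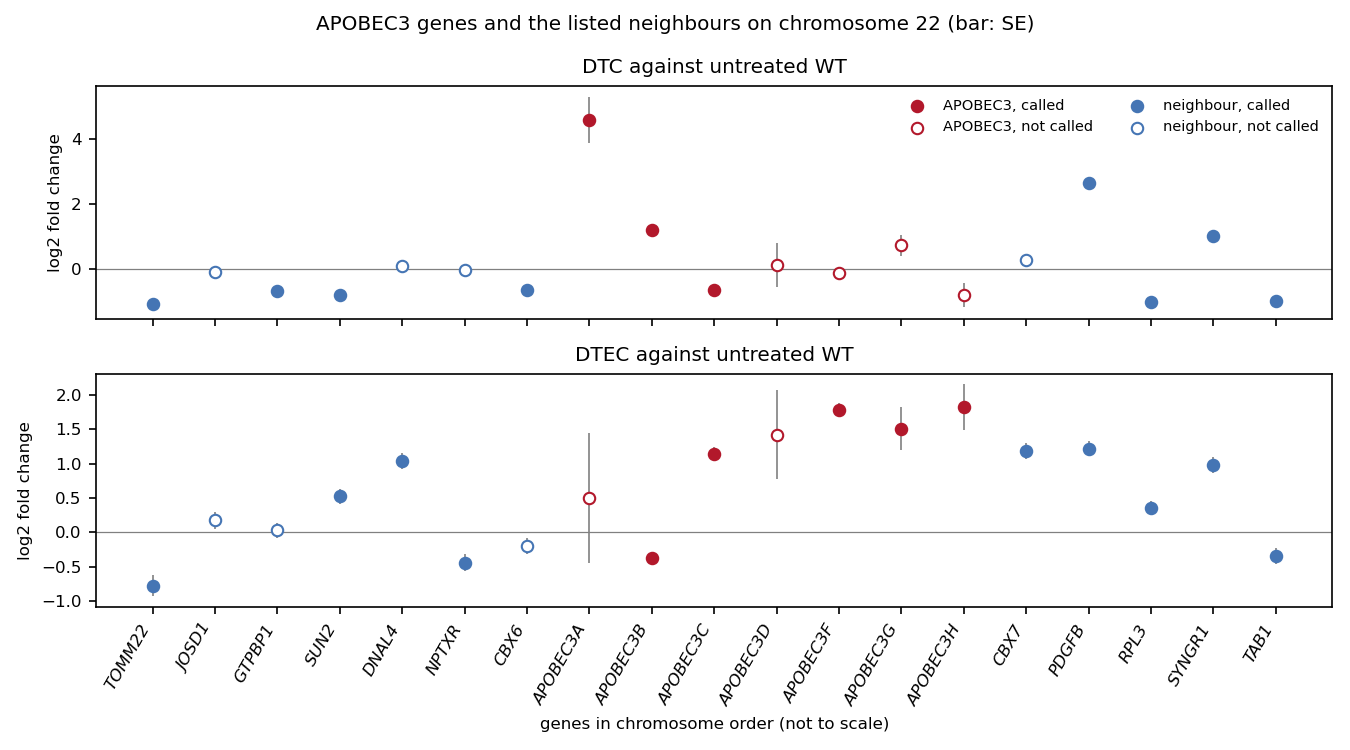
Log2 fold change (point) and SE (bar) of the APOBEC3 genes and their neighbours in chromosome order, not to scale, in DTC and DTEC against untreated WT, with called genes filled and without MGAT3, which was at 0 in untreated WT. APOBEC3A and APOBEC3B stand above 0 at 7 days, as PDGFB and SYNGR1 do, and APOBEC3C, APOBEC3F, APOBEC3G and APOBEC3H stand above 0 at 28 days.

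The enzymes that act with or after UNG fell with it at 7 days. Of 13 genes of repair after uracil excision, 11 fell and 0 rose in DTC (median -0.68 beside 0.06 over all tested genes), among them LIG3 and LIG1, which seal nicks, by 1.54 and 1.19, PARP1, a sensor of breaks, by 1.33 and FEN1, a flap nuclease, by 1.33. In DTEC 8 of the 13 fell against untreated WT (median -0.50), with FEN1 lower by 1.08 and PCNA, the polymerase clamp, by 0.94. From DTC to DTEC 8 rose and 0 fell, with LIG3 higher by 0.99, APEX1, which cuts the abasic site that UNG leaves, by 0.85 and XRCC1 by 0.75. This last count fell to 3 higher and 2 lower with total counts alone or upper quartile scaling, and to 3 higher and 0 lower when only the compared groups were fitted.

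The 10 other DNA glycosylases listed, only some of which act on uracil or thymine, were mixed. At 7 days 2 rose and 3 fell (median -0.01), a balance that turned to 6 higher and 3 lower with total counts alone, with NTHL1 lower by 1.78, NEIL3 by 1.16 and NEIL2 by 0.76, and with NEIL1, at 0.138 CPM in untreated WT, higher at 1.03 CPM. SMUG1, the main uracil glycosylase beside UNG, was at 0.23 in DTC and -0.09 in DTEC against untreated WT, neither of them called. From DTC to DTEC SMUG1 was lower by 0.31 (SE 0.111, adjusted p = 0.0268 in edgeR). TDG, which removes uracil and thymine opposite guanine, was at -0.07 in DTC, not called, and was lower in DTEC by 0.99. Of the 12 genes of uracil avoidance and pyrimidine supply, 8 fell and 2 rose at 7 days (median -0.61; 5 and 3 with total counts alone) and 9 fell and 0 rose at 28 days (median -0.63). RRM2, the small subunit of ribonucleotide reductase, fell from 383 CPM in untreated WT to 155 in DTC and 122 in DTEC. TYMS, which makes thymidylate from deoxyuridylate, was at -1.15 in DTC and -1.47 in DTEC. SLC29A1, a nucleoside transporter, was at -2.08 in DTC and -1.38 in DTEC.

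Single-stranded DNA is the substrate of APOBEC3 enzymes. Of 11 genes for its binding proteins, for checkpoint proteins and for partners of UNG, 10 fell and 0 rose at 7 days (median -1.07). FAM72B, FAM72D and FAM72A, a family whose protein binds UNG, fell by 2.31, 1.99 and 1.52, and FAM72C, at 1.46 CPM in untreated WT, was at least 15.7-fold lower in DTC, where it was at 0. The FAM72 genes are near-identical copies, so the split among them is uncertain and they do not count as separate observations. At 28 days 7 of the 11 fell and 0 rose against untreated WT (median -0.76). Of 7 other AID/APOBEC and ADAR deaminases only ADAR and ADARB1 had enough counts for the test. ADAR, which edits RNA, was lower by 0.36 in DTC (adjusted p = 0.0252), a call that was lost with DESeq2 size factors, and ADARB1 was at 0.09. The ADAR libraries overlapped, at 264 ± 65.1 CPM in DTC and 340 ± 2.17 in untreated WT.

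The regulators most often tied to these genes moved in separate ways. Of 12 NF-kB factors and feedback genes, a pathway known to drive APOBEC3B, 7 rose and 2 fell at 7 days (median 0.83), and 9 and 0 with total counts alone. RELB and NFKB2, subunits of the noncanonical pathway, rose by 2.62 and 1.74, and the targets BIRC3 and CXCL8 by 4.70 and 4.79. The 2 that fell were MAP3K14, by 0.52, and TRAF3, by 0.42, and the subunits RELA, REL and NFKB1 were not called. At 28 days 3 rose and 5 fell against untreated WT (median -0.01). The 3 that rose were CXCL8, RELB and NFKB2, by 1.36, 0.67 and 0.37. Of the 5 that fell, TNFAIP3 and MAP3K14 fell most, by 1.58 and 1.34. From DTC to DTEC 9 fell and 0 rose (median -1.10). Of 18 interferon signalling and response genes, 15 rose and 1 fell at 7 days (median 2.44), with BST2 and OAS1 higher by 4.48 and 4.08 and IFIT1 at 7.84 CPM against 0.486, and 13 rose and 2 fell at 28 days (median 0.80), with BST2 and OAS1 higher by 2.91 and 2.46. IFI44L averaged 0.0112 CPM in untreated WT, 1.85 in DTC and 0.235 in DTEC. It is counted as higher at both times, and at these levels its passing of the filter on low counts may rest on DTC. In KO 2 of the 18 were called, OAS1 and BST2, higher by 1.99 and 1.47. The part of NF-kB and interferon signalling in the levels of the 8 genes was not tested.

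Of 15 E2F, DREAM and B-MYB regulators, which control cell cycle genes and have been tied to APOBEC3B and UNG, 9 fell and 2 rose at 7 days (median -0.97), with FOXM1 lower by 1.95, E2F4 by 1.67 and MYBL2 by 1.54. At 28 days 10 fell and 2 rose against untreated WT (median -0.79). The largest of these changes was a rise, of RBL2 by 1.83, from 26.3 to 93.2 CPM. MYBL2 was lower there by 1.67 and FOXM1 by 1.11. Of 16 S phase and mitosis genes, 15 fell and 1 rose at 7 days (median -1.46), with TOP2A and MKI67 lower by 2.23 and 2.13 and CCNE2 higher by 0.80, and 16 fell at 28 days (median -0.87). From DTC to DTEC 11 of the 16 rose and 2 fell (median 0.56), with TOP2A higher by 1.67. The summed level of the 16 genes was lowest in DTC, between 1194 and 1379 CPM, against 3903 to 4120 in untreated WT and 2094 to 2306 in DTEC, but single genes departed from this. CCNE2, a G1/S cyclin, averaged 14.3 CPM in untreated WT, 24.9 in DTC and 8.50 in DTEC, and CDK1, the mitotic kinase, averaged 236, 163 and 112. Of the regulators, MYBL2 averaged 434, 149 and 137 CPM. The part of cell cycling in the levels of the 8 genes was not tested.

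**Figure D5:**
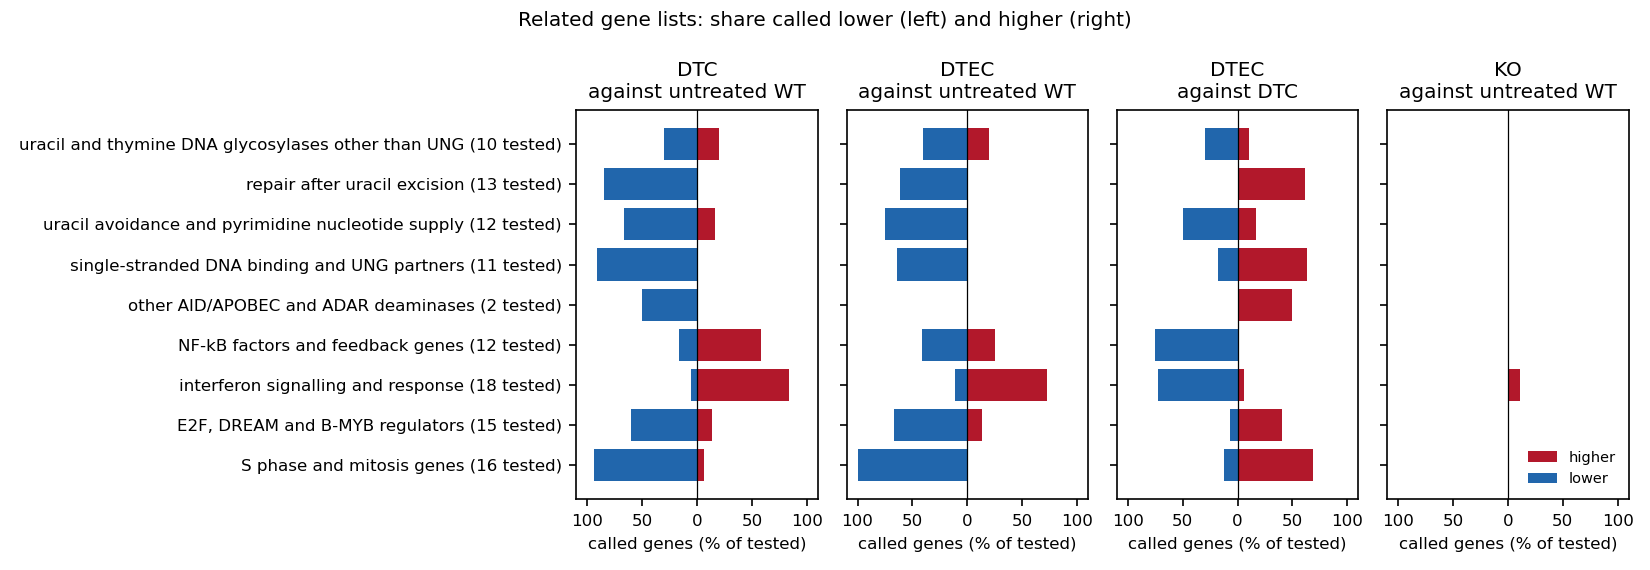
Share of the tested genes of each related list called higher (right) or lower (left) with edgeR, in percent, in each of the 4 comparisons. The interferon list rises in 15 of 18 genes at 7 days, and the S phase and mitosis list falls in 15 of 16 at 7 days and in 16 of 16 at 28 days.

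Several APOBEC3 genes are abundant in white blood cells, so marker genes of other cell types were summed. The 10 leukocyte markers summed to between 1.90 and 2.36 CPM in untreated WT, between 20.7 and 23.5 in DTC, between 3.38 and 4.63 in DTEC and between 2.39 and 3.18 in KO. In DTC the myeloid genes CSF1R and ITGAM averaged 9.57 and 10.4 CPM, at log2 fold changes of 4.61 and 3.00 from untreated WT, and LYZ and CD14 averaged 1.36 and 0.738 CPM against 0.217 and 0.173 in untreated WT. These 4 of the 10 were tested and called higher, the last 2 at levels where the filter on low counts depends on DTC, and 6 were not tested. Among those 6, CD2, MS4A1 and NKG7 were at 0 in every DTC library, and CD3E and PTPRC averaged 0.0225 and 0.0896 CPM there. The 6 fibroblast markers summed to 7.99 to 8.91, 55.0 to 57.6, 11.1 to 14.1 and 13.4 to 15.1 CPM in the same order, most of it COL1A1. The 7 epithelial markers summed to between 12286 and 12938 CPM in untreated WT, between 7080 and 7787 in DTC, between 10388 and 13016 in DTEC and between 12684 and 13434 in KO, with EGFR among those that fell at 7 days, by 1.29. The part of these shifts in the APOBEC3 levels was not tested, and a change in the share of cells expressing a gene and a change in RNA per cell cannot be told apart in bulk libraries.

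Genes with the most similar course were listed for each gene by Pearson's r of log2 CPM over the 12 libraries, which fall into 4 groups and share their depth and scaling, so r is a description only. For APOBEC3B these were IL1RN, ANXA8L1 and CDKN1A (r = 0.992, 0.991 and 0.991). CDKN1A, the cell cycle inhibitor p21, had means of 9.59, 58.3, 5.69 and 8.95 CPM in untreated WT, DTC, DTEC and KO. For APOBEC3C they were UBXN10, ERMP1 and DTX4 (0.994, 0.992 and 0.991), and for APOBEC3F they were PTGIS, SLC11A2 and ATP2C2 (0.994, 0.993 and 0.992). PTGIS, prostacyclin synthase, had means of 86.9, 78.7, 219 and 93.0 CPM. For UNG they were NOB1, EPHA2 and HMGA1 (0.993, 0.992 and 0.991), and HMGA1, a chromatin protein gene, had means of 2855, 527, 2227 and 2425 CPM. For the low genes r was lower, with ATF4, TSPAN1 and ICA1 at 0.967, 0.961 and 0.961 for APOBEC3H, HIBADH, ASB3 and MMUT at 0.943, 0.942 and 0.941 for APOBEC3G, and NPIPA9, DCAF8 and ETAA1 at 0.930, 0.883 and 0.859 for APOBEC3D. Between the 8 genes, r was 0.92 for APOBEC3C with APOBEC3F, 0.917 for APOBEC3F with APOBEC3H, 0.895 for APOBEC3A with APOBEC3B, -0.852 for APOBEC3B with APOBEC3C and -0.911 for APOBEC3B with UNG.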

How the data were processed

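Per the labels, polyadenylated RNA was sequenced as stranded 101-base read pairs. The authors deposited expected counts (estimated counts per gene), unscaled. The submitters' processing notes name RSEM 1.3.1, Bowtie2 2.5.2, DESeq2 1.40.2 and GRCh38, and the annotation release is not given in the sources used here. Values were rounded, and edgeR 4.0.16 was run under R 4.3.3 (filterByExpr, TMM, robust quasi-likelihood F test, 1 mean per group over 12 libraries, Benjamini-Hochberg over 17115 genes), after testing on simulated data. DESeq2 1.42.0, limma 3.58.1 (voom), other scalings, no filter, the replicate block, the compared groups only and each left-out library were alternatives. Coordinates and principal transcript lengths came from GENCODE 29, and tables and figures were made with Python 3.11.15, pandas 2.3.3, scipy 1.17.1 and matplotlib 3.10.9. Named were all 8 genes, TDP1, up to 4 called genes with the largest change per list and comparison, the 3 genes of highest r (log2 CPM, prior count 2) per gene with a mean of at least 1 CPM, and called locus neighbours. ADARB1, CBX7, CDK1, RELA, REL, NFKB1 and the leukocyte markers not tested fall outside that rule and were chosen after their values were seen. So were TDG, MAP3K14 and TRAF3 in DTC, RELB and NFKB2 in DTEC, and SMUG1 and CCNE2, all against untreated WT. The members and lists were chosen with earlier results of these data known. Total counts ran from 25572691 to 38373679 per library, and 3 counts corresponded to 0.0824 to 0.115 CPM.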

Additional observations from a re-analysis of the deposited data

Results flagged for a closer look

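For 7 of the 8 genes the change from the shared untreated WT libraries differed between 7 and 28 days in erlotinib, by the edgeR test of DTEC against DTC. The difference of the 28-day from the 7-day change on the log2 scale was -4.10 for APOBEC3A and -1.58 for APOBEC3B, which were lower at 28 days in all 3 libraries. APOBEC3A had passed the filter on low counts only through DTC, and without that filter its difference was -4.08 (adjusted p = 8.3e-09 in edgeR). It was 1.78 for APOBEC3C, 1.91 for APOBEC3F, 2.60 for APOBEC3H and 0.75 for UNG, all higher at 28 days in all 3 libraries. For APOBEC3G it was 0.77, and that call did not hold without single libraries of DTC or DTEC. APOBEC3C and APOBEC3B were the genes called in opposite directions at the 2 times. Among all tested genes 55.4% differed between the 2 times.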

How the results depend on the processing

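Under the alternatives the fold changes of the 8 genes in the 4 comparisons kept direction and call in 444 values, gained a call in 14, lost it in 9 and changed sign in 11. The number of the 8 genes called when each library was left out ranged from 4 to 5 in DTC and from 5 to 6 in DTEC against untreated WT, from 6 to 7 in DTEC against DTC and from 0 to 0 in KO. DTC replicate 1 stood apart from its group. The squared difference relative to counting error averaged 118 and 73.5 per gene against replicates 2 and 3, and 17.6 between replicates 2 and 3. Without DTC replicate 1 the calls over all genes in DTC against untreated WT went from 11520 to 12323. Fitting only KO and untreated WT called 1 gene (APOBEC3C), with 2656 instead of 738 calls over all genes, and the cause was not tested. All changes of sign were in values not called in the main analysis. With total counts alone the log2 fold change was 0.23 for APOBEC3F in DTC, 0.038 for UNG in DTEC and 0.013 for APOBEC3B in KO, and with upper quartile scaling it was 0.17 for APOBEC3F in DTC. Leaving out each library gave -0.044 to 0.65 for APOBEC3D in DTC and -0.041 to 0.92 for APOBEC3A in DTEC. In KO it gave -0.80 to 0.31 for APOBEC3D, -0.014 to 0.68 for APOBEC3G and -0.39 to 0.21 for APOBEC3H. Total counts alone and upper quartile scaling shifted the all-gene median log2 fold change by 0.35 and 0.29 in DTC, by 0.17 and 0.11 in DTEC and by -0.19 and -0.17 in DTEC against DTC. They moved the higher calls in DTC from 50.5% of all calls to 68.4% and 65.0%. In DTEC that share went from 49.7% to 63.7% with total counts alone, in DTEC against DTC from 51.9% to 37.4% and 38.7% with these scalings, and in KO from 64.1% to 78.8%. Replicate numbers were not treated as pairing, since the labels tie them to nothing shared and not every same-numbered pair of libraries deviated together. In 13 of 18 such pairs r was over 0.1, with a range from -0.17 to 0.51, against -0.46 to 0.43 for other numbers, and 7 of 12 libraries were closest to their own number, a hint from the data only. With the replicate block 5 genes were called in DTC, adding APOBEC3G (0.80, adjusted p = 0.0308), 5 in DTEC, 7 in DTEC against DTC and 0 in KO. Low counts limit APOBEC3A, APOBEC3D, APOBEC3G and APOBEC3H most.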

Other observations

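An APOBEC3C-APOBEC3D readthrough gene (ENSG00000284554) was listed at 0 counts in all untreated WT libraries, at 8.72 counts in 1 DTC library, at 11.96 and 19 counts in 2 DTEC libraries and at 17.05 counts in 1 KO library. Added to APOBEC3D, the counts lay between 17.44 and 40.73 in untreated WT, between 24.5 and 39.47 in DTC, between 67.4 and 83.94 in DTEC and between 17.05 and 31.2 in KO, so the DTEC libraries stood above the others with either counting. APOBEC3B-AS1, which lies on the opposite strand within the APOBEC3B span, was listed at 0 or 1 counts in all 12 libraries.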
